A study of Mus musculus with 18 samples.

Results

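Intermediate filaments are the cytoskeletal polymers by which a developing neural cell can be told from its neighbours, and 7 mouse genes that encode their subunits were followed here through 4 comparisons. The 7 genes are *Prph*, *Vim*, *Nes*, *Nefl*, *Nefm*, *Nefh* and *Ina*. They were chosen by the FPKM values of *Prph*, which were higher in hippocampi and cortices with altered *Kdm2b* than in controls, and the others were added so that filaments of progenitors and of neurons could be set side by side. Each was found under its own symbol in all 4 tables of expression values, 7 of 23138 named genes in the hippocampal, 7 of 23398 in the neurosphere, and 7 of 54429 in each of the cortical and *Rnf2* tables. Because its rise chose the set, *Prph* in hippocampi and cortices with altered *Kdm2b* is described without a test.

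Subunits of this family share a coiled-coil rod, pair through it and assemble into rope-like filaments about which the rest of the cytoskeleton is organised. Radial glia, the progenitors of the forebrain, carry vimentin (*Vim*) together with nestin (*Nes*), which needs vimentin or a relative to polymerise. Postmitotic neurons carry α-internexin (*Ina*) first and then the light (*Nefl*), medium (*Nefm*) and heavy (*Nefh*) neurofilament subunits, and the last of these rises late, as axons thicken. Peripherin (*Prph*) joins neurofilaments and is best known from peripheral and sensory neurons and from brainstem and spinal motor neurons.

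RNA was sequenced in 18 samples of 8 groups. All mice were at postnatal day 0 (P0). The first comparison set hippocampi of 3 control mice, which carried floxed *Kdm2b* on a single or on both alleles, beside those of 3 Kdm2bEmx1-delta-CxxC mice (cKO), in which *Emx1*-Cre removes the floxed exon for the CxxC zinc finger of KDM2B. KDM2B brings a variant Polycomb complex, PRC1.1, to DNA through that finger, which binds unmethylated CpG. The second comparison used neurospheres, floating cultures of hippocampal progenitors grown with FGF2 and EGF, from 2 control and 2 cKO samples, and the third used cortices of 2 and 2. In the fourth, hippocampi of 2 Rnf2Emx1-cKO samples, in which *Emx1*-Cre acts on floxed *Rnf2* (encoding Ring1B, the ubiquitin ligase of PRC1), were set beside 2 controls with floxed *Rnf2* on a single or on both alleles. *Emx1*-Cre acts in the dorsal forebrain lineage of excitatory neurons and glia, so interneurons, vessels, microglia and meninges of a dissected piece keep intact alleles. In such bulk RNA, fewer cells of a type and less RNA per cell cannot be told apart. Whether samples of a group came from separate litters or cultures is not stated, so p values measure the spread between these samples.

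Expression was deposited as FPKM (fragments scaled to transcript length and to the mapped fragments of the library). Levels of different genes within a library can thus be compared only as far as the lengths used hold. For the cortical and *Rnf2* values a single length is listed per gene, such as 1999 bases for *Prph* and 3994 for *Nefh*. The 4 tables were normalised separately, and levels in different tables are set side by side without a test. The depth of the hippocampal and neurosphere libraries of the *Kdm2b* comparisons is unknown from their values, which summed to 363633 to 383249 FPKM in hippocampi. Reads recovered from the cortical and *Rnf2* values numbered 18480515 to 21905224 and 14654894 to 16334420 per library. Neurosphere control 1 stood apart, with 855276 FPKM in all against 452580 to 522964 in the other 3 libraries, 29.3% of it on entries that name no gene and 22.6% of the remainder on *Mir6236*. Whole-gene values of the targeted genes, which include the exons outside the floxed part, did not pass the test: *Kdm2b* differed between cKO and control by −0.10 in hippocampi, 0.06 in neurospheres and −0.13 in cortices on the log2(FPKM + 1) scale, and *Rnf2* by −0.16 in Rnf2Emx1-cKO hippocampi (limma adjusted p from 0.364 to 0.762). Their cKO libraries lay below the controls for cortical *Kdm2b* and for *Rnf2*, above them for neurosphere *Kdm2b*, and overlapped them for hippocampal *Kdm2b*. These values therefore check the labels only weakly.

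The genes lie on 6 chromosomes (GRCm38, as the deposited coordinates give them). *Prph* is at chr15:99055174-99058978 on the plus strand, *Vim* at chr2:13573927-13582826 (plus), *Nes* at chr3:87971078-87980451 (plus), *Ina* at chr19:47014698-47025327 (plus) and *Nefh* at chr11:4938754-4948064 (minus). *Nefl* (chr14:68083863-68089095, plus) lies inside the span annotated for *Nefm* (chr14:68082590-68124846, minus), and *Ina* overlaps the antisense end of *Nt5c2*. The strand setting of the authors' counting is not given in the sources used here, so reads of such overlapping pairs may have been shared.

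Since the deleted finger binds CpG, the bases upstream of the start are shown for *Prph* and *Nes*, which were higher in cKO hippocampi and cortices, and for *Ina*, which was called in neither. The sequences are from RefSeq promoters on GRCm38.p6, plus strand, 5′ to 3′, with each CG in capitals, and stop before the first transcribed base of either annotation. The *Prph* stretch is chr15:99054924-99055173, that of *Nes* chr3:87970843-87971077 and that of *Ina* chr19:47014431-47014680.
Prph: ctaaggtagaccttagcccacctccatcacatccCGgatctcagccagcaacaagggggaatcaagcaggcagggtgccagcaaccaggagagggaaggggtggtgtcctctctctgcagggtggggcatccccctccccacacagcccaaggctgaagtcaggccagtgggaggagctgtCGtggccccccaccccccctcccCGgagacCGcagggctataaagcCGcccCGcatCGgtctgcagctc
Nes: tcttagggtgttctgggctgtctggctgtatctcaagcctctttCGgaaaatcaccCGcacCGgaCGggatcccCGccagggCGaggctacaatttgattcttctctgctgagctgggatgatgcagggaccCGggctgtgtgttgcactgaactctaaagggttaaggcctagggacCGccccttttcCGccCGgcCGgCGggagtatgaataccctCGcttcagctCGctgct
Ina: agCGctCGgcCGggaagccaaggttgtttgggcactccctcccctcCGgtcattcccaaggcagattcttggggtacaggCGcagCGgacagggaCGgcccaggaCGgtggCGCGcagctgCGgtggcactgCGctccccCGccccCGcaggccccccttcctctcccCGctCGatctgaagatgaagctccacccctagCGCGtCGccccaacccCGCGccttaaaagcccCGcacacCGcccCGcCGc

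The *Prph* stretch held 7 CG, the *Nes* stretch 14 and the *Ina* stretch 25. Over the whole 300-base window (250 bases before and 50 after the RefSeq start), *Prph* had 10 CG, *Vim* 11, *Nes* 18 and *Ina* 32, beside a median of 7 over 32851 promoters. At least as many were found in 43.5%, 41.4%, 29.7% and 9.52% of all promoters, in the same order. The CG count thus ran from near the middle of all promoters for *Prph* to the uppermost 9.52% for *Ina*. TATAAA, the core of a TATA box, began 31 bases before the start of *Prph* and 32 before that of *Vim*, and neither strand of the *Nes* and *Ina* windows held it. On either strand it occurred in 13.6% of all promoters. *Nefl*, *Nefm* and *Nefh* had no entry in the promoter table.

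In control hippocampi of the first comparison, *Vim* was the highest of the 7 genes in all 3 libraries and *Ina* the second, and *Nefh* and *Prph* were the lowest. *Nes*, *Nefl* and *Nefm* lay between, and *Nes* and *Nefl* exchanged places among libraries. In cortical controls *Ina* was first and *Vim* second in both libraries. In neurospheres *Vim* and *Nes* led in all 4 libraries, *Ina* came next, and the neurofilament subunits were under 1 FPKM in both controls. A neonatal tissue thus held both kinds of filament, and the cultures mostly the progenitor kind.

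**Figure D1:**
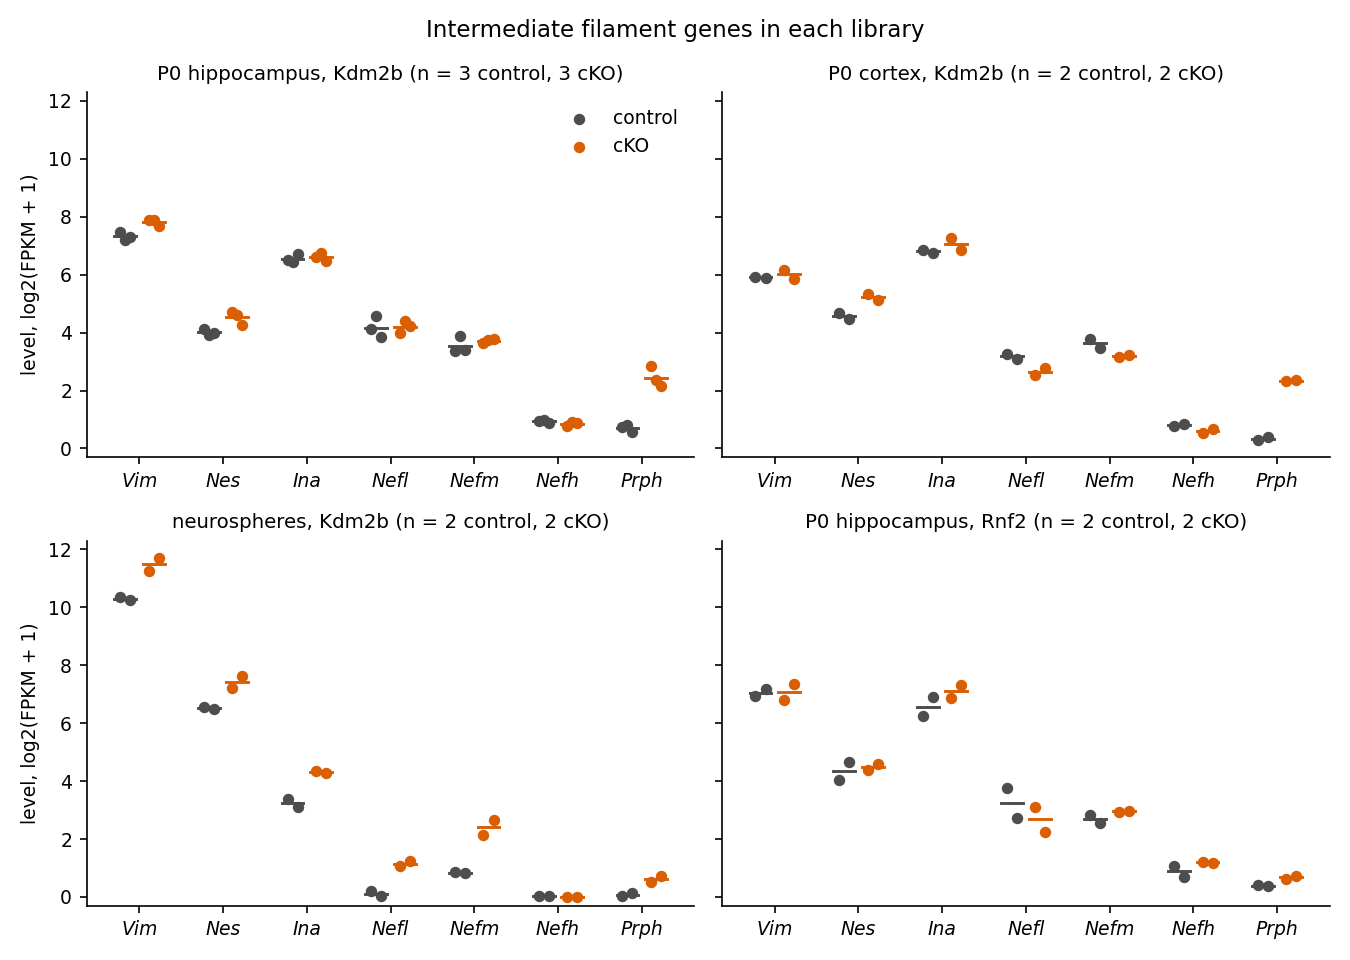
Level of each intermediate filament gene in every library, as log2(FPKM + 1), in 4 panels, 1 per comparison. Points are libraries, short lines are group means, grey is control and orange is cKO. *Prph* sits between 0.498 and 0.771 FPKM in hippocampal controls and between 3.43 and 6.21 FPKM in cKO hippocampi, and *Vim* and *Nes* lie above their controls there, while the neurofilament genes overlap.

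*Prph* transcripts were scarce in control hippocampi and clearly present in cKO hippocampi. Levels were 0.674, 0.771 and 0.498 FPKM in the controls and 6.21, 4.08 and 3.43 FPKM in the cKO libraries. The mean went from 0.647 ± 0.138 (SD, n = 3) to 4.57 ± 1.45 FPKM (SD, n = 3), a ratio of 7.06 and a difference of 1.73 on the log2(FPKM + 1) scale, which understates changes of low values. The lowest cKO library lay above the highest control. In cortices *Prph* was at 0.227 and 0.306 FPKM in controls and at 3.97 and 4.09 FPKM in cKO. Those values rest on 10 and 13 recovered reads in controls and 156 and 153 in cKO, and the ratio of means was 15.1 (difference 1.99, log2(FPKM + 1)). At these levels *Prph* passed *Nefh* in all 5 tissue libraries of *Kdm2b* cKO, having been below it in all 5 controls, but stayed below *Nefm* in each.

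Genes of peripheral and sensory neurons, where peripherin is best known, were near 0 throughout. The summed FPKM of 7 such markers was 0.469, 0.325 and 0.600 in hippocampal controls and 0.624, 1.82 and 1.37 in cKO. The hippocampal sums of the groups did not overlap. *Pou4f1*, *Tlx3*, *Prrxl1* and *Scn10a* stayed under 0.1 FPKM in all 6 libraries, and *Isl1* was the only marker above 1 FPKM in any library. In cortices the sum was 0.495 and 0.742 FPKM in controls and 0.432 and 1.99 FPKM in cKO. The part of such cells in the *Prph* values was not tested.

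In neurospheres *Prph* was at 0.0274 and 0.0935 FPKM in controls and at 0.416 and 0.654 FPKM in cKO. The mean over all 4 libraries was under the 0.5 FPKM needed for the main test. With no filter on low values limma gave a difference of 0.53 on the log2(FPKM + 1) scale (adjusted p = 0.0446), and 8.46% of all genes were called higher in that setting. In Rnf2Emx1-cKO hippocampi it was at 0.545 and 0.649 FPKM beside 0.334 and 0.289 FPKM in controls, which rest on 18 and 21 against 10 and 9 recovered reads. That difference, 0.28 on the same scale, did not pass the test without the filter (limma adjusted p = 0.832). The groups did not overlap in either table, and neither did those of 66.4% of tested genes in neurospheres and 38.3% in *Rnf2* hippocampi.

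The progenitor filaments rose in cKO hippocampi. *Vim* was at 177, 145 and 157 FPKM in controls and at 234, 237 and 206 FPKM in cKO, and *Nes* at 16.3, 14.2 and 14.8 FPKM in controls and at 25.4, 23.5 and 18.1 FPKM in cKO. No cKO library overlapped a control for either gene. The difference was 0.50 for *Vim* (SE 0.081, limma adjusted p = 0.00916) and 0.52 for *Nes* (SE 0.11, adjusted p = 0.0238) on the log2(FPKM + 1) scale. A gene counted as called when its log2 difference exceeded 0.4 in either direction and its p, before adjustment over all genes, was below 0.05.

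The neuronal filaments did not pass that test in hippocampi. *Ina* was at 88.9, 86.5 and 103 FPKM in controls and at 96.8, 106 and 88.4 FPKM in cKO, a difference of 0.06 (SE 0.082, limma adjusted p = 0.704). *Nefl* ranged from 13.3 to 22.5 FPKM in controls and from 14.7 to 20.2 FPKM in cKO, *Nefm* from 9.27 to 13.6 and from 11.5 to 12.8 FPKM, and *Nefh* from 0.821 to 0.996 and from 0.699 to 0.905 FPKM. All 4 overlapped between groups, with differences of 0.02 for *Nefl* (SE 0.17), 0.18 for *Nefm* (SE 0.13) and −0.08 for *Nefh* (SE 0.11) on the log2 scale and adjusted p from 0.455 to 0.954. Of the 6 tested members 2 were called, both higher, and these 2 were also those without overlap. Over all 13446 genes tested, 6.14% were called, 3.89% were called higher, and 29.2% did not overlap. The median difference was 0.12 over the 6 members and 0.01 over all genes.

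Of 12 radial glia and progenitor markers, all tested, 4 were called higher and 0 lower (median 0.25, log2). They were *Pax6* (0.83, adjusted p = 0.00310), a patterning factor of dorsal progenitors, *Sox9* (0.68, adjusted p = 0.00151), *Hes1* (0.60, adjusted p = 0.0442), a Notch effector, and *Prom1* (0.55, adjusted p = 0.0131), all by limma. Of the other 8, *Ptprz1* (−0.26, adjusted p = 0.0163, short of the fold threshold) and *Fabp7* (−0.17) were below 0 and *Tnc* was at 0.04. Of 8 neuronal markers 0 were called, with all 8 differences below 0 (median −0.24), and their sum was 2386 to 2538 FPKM in controls and 1917 to 2214 FPKM in cKO. *Syn1* (−0.39), *Stmn2* (−0.28) and *Syt1* (−0.27) were short of the fold threshold alone, at a limma adjusted p from 0.00694 to 0.0144. So were *Tubb3* (−0.28), *Nsg1* (−0.21) and *Snap25* (−0.20), at a limma adjusted p from 0.0624 to 0.158. *Vim* is also a gene of vessels and connective tissue. None of 5 endothelial, 5 mural and 5 meningeal fibroblast markers was called, with medians of −0.09, −0.05 and −0.19. Microglial markers were higher for 2 of 4 (*Cx3cr1* and *C1qa*, both 0.43), and their sum was 19.5 to 24.4 FPKM in controls and 25.3 to 32.4 FPKM in cKO. The choroid plexus genes *Ttr* (1.77) and *Clic6* (0.47) were called, 2 of the 2 tested of 4, with list sums of 4.68 to 15.7 FPKM in controls and 6.26 to 58.2 FPKM in cKO. *Clic6*, at a mean of 0.255 FPKM in controls, passed the filter on low values only through its cKO libraries. Of 7 Cajal-Retzius markers 2 were higher (*Ebf3* 0.85 and *Lhx1* 0.65), of 5 astrocyte markers 2 lower (*Aqp4* −0.59 and *S100b* −0.40), and of 3 blood genes 0 were called. *S100b*, at a mean of 0.453 FPKM in cKO, passed the filter only through its control libraries. The part of the cells of all these lists in the *Vim* and *Nes* values was not tested.

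**Figure D2:**
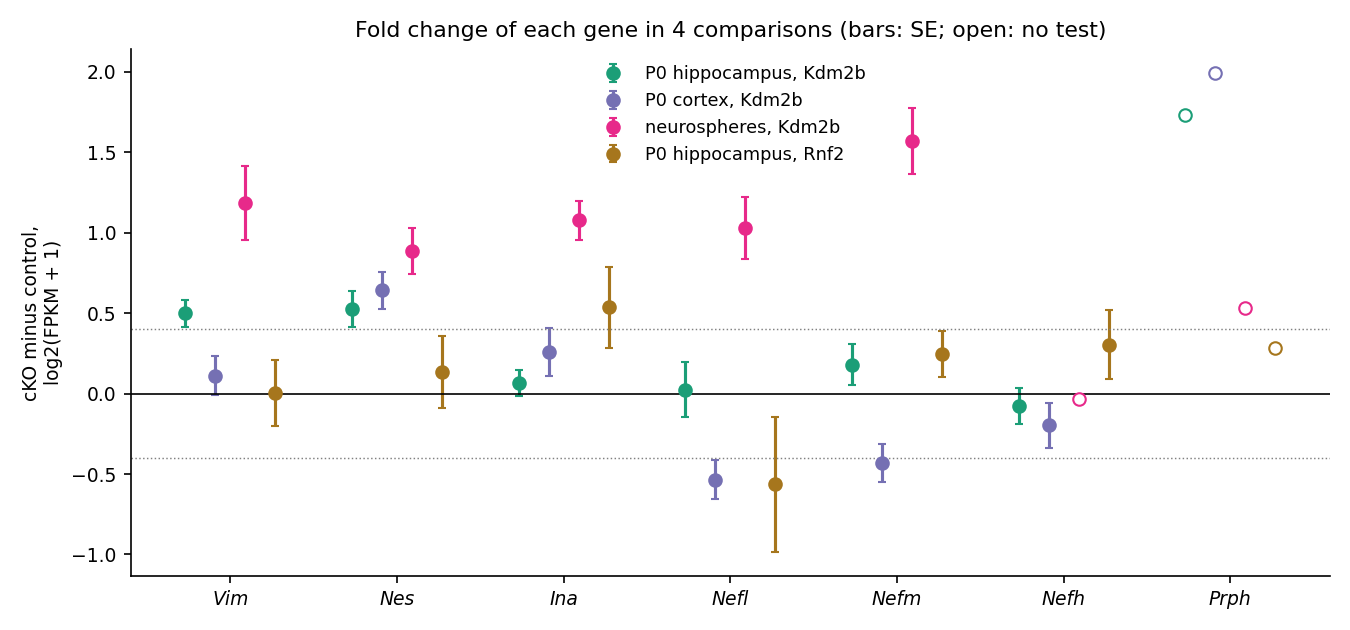
Difference between cKO and control on the log2(FPKM + 1) scale for each gene in the 4 comparisons; bars are SE from limma, open points have no test and dotted lines mark 0.4. *Vim* lies at 0.50 in hippocampi, 0.11 in cortices and 1.18 in neurospheres, and *Nefm* at 0.18, −0.43 and 1.57.

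In cortices the set divided. *Nes* was at 24.8 and 21.3 FPKM in controls and at 39.1 and 33.9 FPKM in cKO (difference 0.64, SE 0.11, limma adjusted p = 0.126). *Nefl* was at 8.67 and 7.52 FPKM in controls and at 4.75 and 5.82 FPKM in cKO (−0.54, SE 0.12, limma adjusted p = 0.194). *Nefm* was at 12.7 and 10.2 FPKM in controls and at 7.93 and 8.41 FPKM in cKO (−0.43, SE 0.12, limma adjusted p = 0.251). At the unadjusted threshold *Nes* was thus called higher and these neurofilament subunits lower, while the adjusted p of none of the 3 passed 0.05.

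*Vim* was not called in cortices, at 59.3 and 58.3 FPKM in controls and 70.8 and 57.1 FPKM in cKO (0.11, limma adjusted p = 0.757). *Ina* was at 113 and 107 FPKM in controls and at 151 and 116 FPKM in cKO (0.26, adjusted p = 0.555). *Nefh* was at 0.693 and 0.801 FPKM in controls and at 0.459 and 0.589 FPKM in cKO (−0.20, adjusted p = 0.619), on 36 to 68 recovered reads a library. Of the 6 tested members 3 were called, beside 7.01% of 15691 genes, and 5 did not overlap, beside 44.8%. With an adjusted p under 0.05, 0 members were called and 0.427% of all genes. *Nefm* lost its call when control 1, cKO 1 or cKO 2 was left out (−0.28, −0.39 and −0.47), and *Ina* gained a call without cKO 2 (0.45).

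Markers of non-neural cells moved in the same cortical libraries. All 5 meningeal fibroblast markers were called higher, led by *Col3a1* (2.51) and *Dcn* (2.33), and their sum was 1.06 to 1.82 FPKM in controls and 19.2 to 33.5 FPKM in cKO. Their control means were 0.213 to 0.373 FPKM, so all 5 passed the filter on low values only through their cKO libraries. Of 5 endothelial markers 3 were higher (*Cdh5* 0.77, *Cldn5* 0.68 and *Tek* 0.41), with sums of 33.8 to 34.4 and 54.6 to 55.0 FPKM, and of 5 mural markers *Rgs5* (0.47), with 4 tested and sums of 22.9 to 23.3 and 30.9 to 33.3 FPKM. Of 3 blood genes *Hbb-bs* (0.64) and *Hba-a1* (0.55), which have near-identical copies, were higher. *Nes* is a gene of young vessels as well as of progenitors, and *Vim* one of fibroblasts and vessels. Of 12 progenitor markers 0 were called higher and 1 lower, the matrix gene *Tnc* (−0.73), and of 8 neuronal markers 0 were called (median −0.16). Single genes of choroid plexus (*Aqp1*, 0.93, of 1 tested) and microglia (*C1qa*, 0.94, of 4) were higher, and of 6 Cajal-Retzius and 2 astrocyte markers tested 0 were called. *Aqp1*, at a mean of 0.222 FPKM in controls, also passed the filter only through its cKO libraries. Both cortical cKO libraries carried the higher meningeal and vascular sums, so these and the genotype cannot be told apart.

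In neurospheres progenitor and neuronal filament genes alike rose. *Vim* was at 1290 and 1220 FPKM in controls and at 2418 and 3354 FPKM in cKO (1.18, SE 0.23, limma adjusted p = 0.0192). *Nes* was at 94.2 and 89.4 FPKM in controls and at 148 and 195 FPKM in cKO (0.89, SE 0.14, adjusted p = 0.0108). *Ina* was at 9.47 and 7.57 FPKM in controls and at 19.6 and 18.4 FPKM in cKO (1.08, SE 0.12, adjusted p = 0.00381). All 3 genes, progenitor and neuronal, rose with no overlap between the groups, and 66.4% of all genes tested there did not overlap either.

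The neurofilament genes started from far lower levels in these cultures. *Nefm* was at 0.796 and 0.754 FPKM in controls and at 3.39 and 5.33 FPKM in cKO (1.57, SE 0.21, limma adjusted p = 0.00594). *Nefl* was at 0.145 and 0.0265 FPKM in controls and at 1.09 and 1.34 FPKM in cKO (1.03, SE 0.19, adjusted p = 0.0172), and passed the filter on low values only through its cKO libraries. *Nefh* was at 0.0271 and 0.0199 FPKM in controls and listed at 0 in both cKO libraries, under the filter.

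Of the members tested in neurospheres, *Vim*, *Nes*, *Ina* and *Nefm* were called higher, and so was *Nefl*, whose test rests on a filter that its own change decided. There 24.6% of 12227 genes were called, 11.4% were called higher and 66.4% did not overlap between groups. The 2 members under the filter were *Prph* and *Nefh*. Without control 1, the library that stood apart, 5 members were called. Without control 2 *Vim* lost its call (1.14, limma adjusted p = 0.235), and without cKO 2 *Nefl* fell under the filter.

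Other neuronal genes of the neurospheres were called in both directions. Of 8 neuronal markers 7 were tested, and *Rbfox3* was called higher (0.79) while *Dcx* (−2.21), *Snap25* (−1.03) and *Tubb3* (−0.42) were called lower. Of 15 neuronal microtubule and growth cone genes 14 were tested, 3 were called higher and 3 lower. The higher ones were *Stmn1* (0.85), which destabilises microtubules in dividing and growing cells, *Gap43* (0.80), a growth cone protein, and *Map1b* (0.52), and the lower ones *Dcx*, *Map1a* (−0.84) and *Tubb3*. Progenitor markers were mixed, with *Prom1* (1.13) and *Tnc* (0.51) higher and *Hes5* (−0.94), *Hes1* (−0.89) and *Sox9* (−0.60) lower of 12. All 5 astrocyte markers were lower, from −1.08 for *Aqp4* to −2.45 for *S100b*, and their sum was 280 to 290 FPKM in controls and 86.7 to 92.3 FPKM in cKO. Endothelial (1 of 5 tested), meningeal (0 of 5), microglial (0 of 4) and blood (0 of 3) markers were mostly under the filter, and none was called, while 1 of 5 mural markers, *Cspg4*, also a gene of oligodendrocyte precursors, was lower (−0.64). Of 3 Cajal-Retzius markers tested *Trp73* (0.78) and *Ebf3* (0.58) were higher, and the 1 choroid plexus gene tested was not called. *Trp73* and *Ebf3*, at means of 0.193 and 0.408 FPKM in controls, passed the filter only through their cKO libraries. *Dcx*, which stands in both neuronal lists, was at a mean of 0.388 FPKM in cKO and passed only through its control libraries.

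Among these astrocyte genes is a further intermediate filament, *Gfap*, the filament of astrocytes and adult neural stem cells. It was called lower in cKO neurospheres, from 24.5 ± 5.93 to 5.13 ± 1.07 FPKM (SD, n = 2 each, −2.05, limma adjusted p = 0.00243), against the direction of *Vim*, its partner in glial filaments. Of 20 other intermediate filament genes 10 passed the filter there. *Lmnb1*, a nuclear lamin of proliferating cells, was called higher (0.87, adjusted p = 0.00272), and *Bfsp2*, best known from the lens, lower (−0.98, adjusted p = 0.00648). The largest differences of the list were not called and came from a single library: *Krt8* (2.27) and *Krt19* (1.96), keratins of simple epithelia named after their values were seen, were at 20.7 and 13.4 FPKM in cKO 1 and at 0.336 and 0.358 FPKM in cKO 2, with controls under 0.3 FPKM. *Krt18* (0.92) and *Krt20* (1.19) had the same pattern, at 2.81 and 4.34 FPKM in cKO 1. Without cKO 1, the same 5 filament members were called. In hippocampi 9 of the 20 were tested, in cortices 6 and in *Rnf2* hippocampi 8, and 0 were called in each, with differences from −0.29 to 0.38, from −0.14 to 0.33 and from −0.32 to 0.26.

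Among genes for proteins that tie, carry or remove filaments, a single gene was called in all 3 *Kdm2b* comparisons. *Plec*, whose product plectin links intermediate filaments to one another and to other cytoskeletal polymers, was called higher in hippocampi (6.47 ± 0.571 to 9.96 ± 0.554 FPKM, SD, n = 3 each, 0.55, limma adjusted p = 0.00690), in neurospheres (0.92, adjusted p = 0.0161) and in cortices (0.99, adjusted p = 0.0720), and not in *Rnf2* hippocampi (−0.03, adjusted p = 0.976). Its hippocampal entry is joined with *Parp10*, so reads of the latter may be in it. Of the 12 linker, transport and turnover genes 11 were tested in each comparison, and *Plec* was the only call in hippocampi and in cortices. Over all genes, 6.14% were called in hippocampi, 7.01% in cortices and 24.6% in neurospheres, and the share called in all 3 was not counted. In neurospheres *Myo5a* (0.60), a motor that binds neurofilaments, was also higher and *Trim2* (−0.61), a ubiquitin ligase for *Nefl* product, lower. The median over the list was −0.11, −0.02, −0.02 and 0.06 in hippocampi, neurospheres, cortices and *Rnf2* hippocampi.

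Microtubule genes of neurons gave a single call in *Kdm2b* tissue, and in hippocampi others missed only the fold threshold. There all 15 neuronal microtubule and growth cone genes had differences below 0 (median −0.27), beside a median of 0.01 over all genes, and 1, *Map1a* (−0.51, limma adjusted p = 0.00502), was called. *Tubb2a*, *Dclk1*, *Gap43*, *Stmn2*, *Dpysl3*, *Map2* and *Mapt* were lower by less (−0.36 to −0.21), at a limma adjusted p from 0.00690 to 0.0288. *Tubb3* (−0.28), *Map1b* (−0.25) and *Dpysl2* (−0.18) also missed only the fold threshold, at a limma adjusted p from 0.0581 to 0.158. In cortices 14 of 15 were below 0 (median −0.13) and 0 were called, and in *Rnf2* hippocampi 8 of 15 were below 0.

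**Figure D3:**
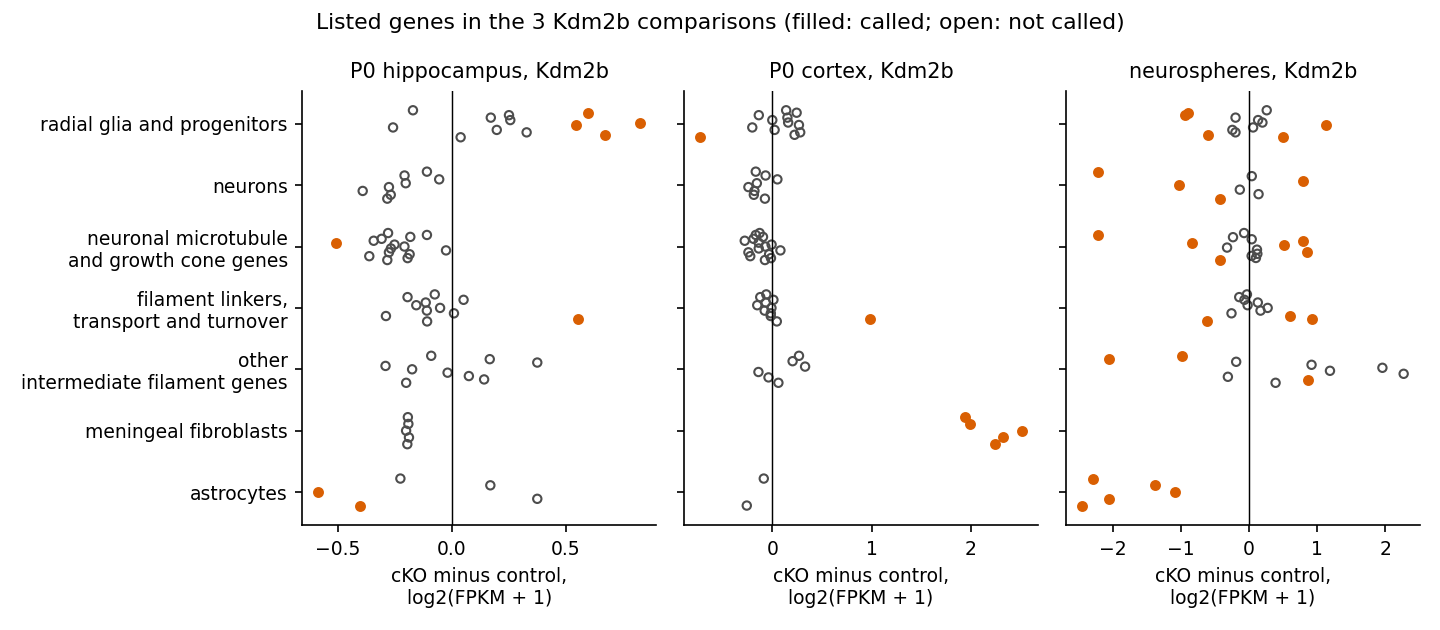
Difference between cKO and control on the log2(FPKM + 1) scale for the tested genes of 7 lists in the 3 *Kdm2b* comparisons, with a scale of its own on each horizontal axis. Filled points were called and open points were not. In hippocampi 4 progenitor genes lie above 0.5 and all 8 neuronal genes below 0, in cortices all 5 meningeal genes lie above 1.9, and in neurospheres all 5 astrocyte genes lie below −1.

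Hippocampi of Rnf2Emx1-cKO mice gave no call among 6 tested members, beside 4.71% of 15764 genes. *Vim* was at 122 and 143 FPKM in controls and at 109 and 161 FPKM in cKO (0.01, SE 0.21), and *Nes* at 15.4 and 24.3 and at 19.7 and 23.2 FPKM (0.14, SE 0.22). *Ina* was at 74.4 and 117 FPKM in controls and at 117 and 158 FPKM in cKO (0.54, SE 0.25, limma adjusted p = 0.727). *Nefl* was at 12.6 and 5.57 and at 7.56 and 3.78 FPKM (−0.56, SE 0.42, adjusted p = 0.786). The controls of these last genes lay far apart, and the groups overlapped.

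*Nefm* was at 6.18 and 4.91 FPKM in those controls and at 6.67 and 6.80 FPKM in cKO (0.25, limma adjusted p = 0.759), and *Nefh* at 1.12 and 0.628 and at 1.33 and 1.25 FPKM (0.30, adjusted p = 0.774). These were the 2 of 6 tested members without overlap, beside 38.3% of all genes. Without control 2, which leaves a single control, the differences were larger, at 0.86 for *Ina* and 0.45 for *Nes*. Of 5 meningeal markers 4 were called lower here, with sums of 35.9 to 36.4 FPKM in controls and 15.7 to 24.1 FPKM in cKO, and *Rgs5* among 5 mural markers was lower (−0.48). Of 12 progenitor markers *Hes1* (0.55) was higher and *Ptprz1* (−0.45) lower, and of 8 neuronal and 5 endothelial markers 0 were called. Of 7 Cajal-Retzius markers *Ebf3* (0.49) and *Lhx1* (0.45) were higher, and 0 were called of 4 choroid plexus, 4 astrocyte, 4 microglial and 3 blood markers, 11 linker, transport and turnover genes and 15 microtubule and growth cone genes.

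Whether the filament genes differed between comparisons was tested directly, as the difference of their log2 changes. Against neurospheres, *Nefm*, *Ina* and *Vim* differed at an adjusted p under 0.05, and so did *Nefl*, which passed the filter there only through its cKO libraries. Over all genes 26.9% of 11075 differed. The hippocampal change was lower than that in neurospheres by 1.39 for *Nefm* (SE 0.24, limma adjusted p = 0.00203), by 1.01 for *Ina* (SE 0.15, adjusted p = 7.28e-04), by 1.003 for *Nefl* (SE 0.26, adjusted p = 0.0167) and by 0.68 for *Vim* (SE 0.19, adjusted p = 0.0222). For *Nes* the difference of −0.36 (SE 0.19) did not pass (adjusted p = 0.194). The call for *Vim* was lost without hippocampal control 1, hippocampal cKO 3, neurosphere control 1 or neurosphere control 2 (adjusted p from 0.0504 to 0.0735), and 2 members were called without neurosphere control 2.

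Against cortices 0 of 6 members differed, beside 1.61% of 10708 genes, and the smallest adjusted p was 0.184, for *Nefm*, whose change was 0.61 higher in hippocampi (SE 0.20, by limma). The unadjusted p was under 0.05 for 3 of the 6, *Nefm*, *Vim* (0.39, adjusted p = 0.264) and *Nefl* (0.56, adjusted p = 0.352). Against *Rnf2* hippocampi 0 of 6 differed, beside 0.683% of 11266 genes, with the smallest adjusted p at 0.279 for *Vim* (0.49, SE 0.21), the only member with an unadjusted p under 0.05.

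The balance of progenitor and neuronal filaments was read in each library as the difference of log2(FPKM + 1) values. *Vim* exceeded *Nefl* by 3.35, 2.64 and 3.47 in hippocampal controls and by 3.91, 3.49 and 3.47 in cKO. *Nes* lay below *Ina* by a smaller margin in cKO (−1.89, −2.12 and −2.23) than in controls (−2.38, −2.52 and −2.72). In cortices the values were 2.64 and 2.80 in controls and 3.64 and 3.09 in cKO for *Vim* minus *Nefl*, and −2.15 and −2.28 and then −1.93 and −1.74 for *Nes* minus *Ina*. On this scale every tissue library of *Kdm2b* cKO was above every control of its table on both measures. The closest hippocampal pair for *Vim* minus *Nefl* stood at 3.47 on each side. Hippocampal *Vim* over *Nefl* as a plain FPKM ratio overlapped, at 10.73, 6.46 and 11.82 in controls and 15.94, 11.76 and 11.69 in cKO. In cortices that ratio did not overlap, at 6.83 and 7.76 in controls and 14.9 and 9.80 in cKO. The direction depended on the pair of genes chosen. Cortical *Vim* over *Ina*, as a plain FPKM ratio, was 0.523 and 0.543 in controls and 0.468 and 0.494 in cKO, lower with no overlap. In *Kdm2b* hippocampi it was higher with no overlap, at 1.99, 1.68 and 1.52 in controls and 2.41, 2.24 and 2.33 in cKO. *Vim* over *Ina* overlapped in neurospheres and was lower in cKO with no overlap in *Rnf2* hippocampi.

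In neurospheres the same differences overlapped between groups, at 10.14 and 10.22 in controls and 10.18 and 10.49 in cKO for *Vim* minus *Nefl*, and at 3.18 and 3.40 and then 2.86 and 3.34 for *Nes* minus *Ina*. With *Nefl* near or under the pseudocount of 1, the first of these mostly follows *Vim*. As plain FPKM ratios, *Vim* over *Nefl* was 8909 and 46050 in controls and 2223 and 2507 in cKO, lower in cKO with no overlap. In *Rnf2* hippocampi *Nes* minus *Ina* was −2.20 and −2.22 in controls and −2.50 and −2.72 in cKO, lower in place of higher, and *Vim* minus *Nefl* overlapped (3.18 and 4.45, 3.69 and 5.08). These values describe the libraries and were given no test.

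**Figure D4:**
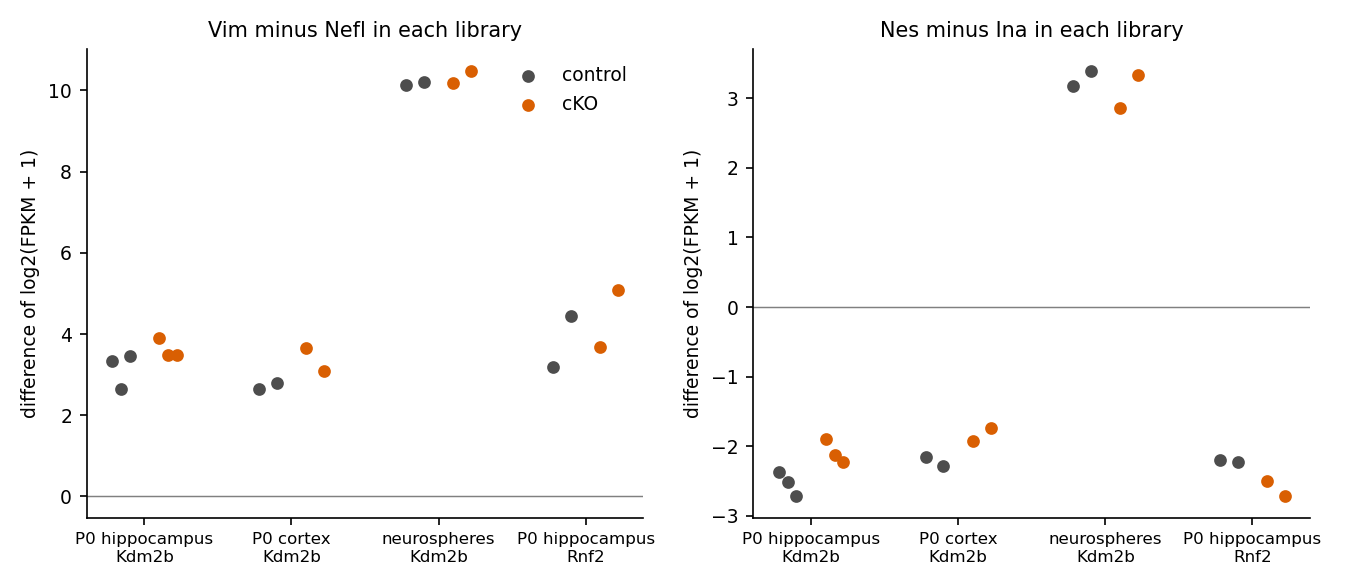
*Vim* minus *Nefl* (left) and *Nes* minus *Ina* (right) in each library, as differences of log2(FPKM + 1), for the 4 comparisons. Each point is a library, grey for control and orange for cKO. In *Kdm2b* hippocampi and cortices the cKO points lie above the controls on both panels, and for *Nes* minus *Ina* in *Rnf2* hippocampi they lie below, at −2.50 and −2.72.

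Across the 18 libraries, with each table centred on its controls, *Prph* varied more like *Nes* (Pearson r = 0.67) than like *Vim* (0.33), *Ina* (0.08), *Nefm* (−0.12), *Nefl* (−0.17) or *Nefh* (−0.48). *Vim* and *Nes* had r = 0.83, *Nefl* and *Nefm* 0.78, and *Vim* and *Nefm* also 0.78. Among 9600 genes measured in all tables, those most like *Prph* were *Wnt5b*, a secreted Wnt ligand (r = 0.97), *H2-K1*, a class I histocompatibility gene with close paralogs (0.94), *Tyro3*, a receptor tyrosine kinase (0.93), *Dok1*, a docking protein (0.93), and *Tmem8* (0.92). The differences for *Wnt5b* were 0.89 in hippocampi, 0.47 in neurospheres, 1.17 in cortices and 0.23 in *Rnf2* hippocampi. These correlations share libraries and the step from control to cKO, and describe likeness only.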

How the data were processed

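RNA-seq values of 18 samples were used, and groups were taken from the deposited labels. The values are FPKM, computed by the authors: for hippocampi and neurospheres reads were trimmed with cutadapt, aligned with STAR to mm10 and quantified with Cufflinks 2.2.1, while the steps for the cortical and *Rnf2* tables are not given in the sources used here. There, FPKM times gene length gave whole reads (100% of values within 0.05 of a whole number). Entries naming no gene (2861 of 27180 hippocampal, 2059 of 26293 neurosphere, 140 of 54672 cortical and 0 of 54532 *Rnf2* entries) were dropped, and of several entries with a name only the most abundant was used; 7 list genes in the hippocampal and 7 in the neurosphere table were read from entries that join several names.

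Each table was fitted alone with limma 3.58.1 in R 4.3.3 (lmFit, eBayes with a trend, two-sided) on log2(FPKM + 1) after genes averaging under 0.5 FPKM were set aside, with Benjamini-Hochberg adjustment over all genes. A call needed an absolute log2 difference over 0.4 together with p below 0.05 before adjustment, as the methods set them. Differences between tables were interaction contrasts over the 4 groups, called at an adjusted p under 0.05. The fits were tested on simulated data. Members, 14 gene lists and the naming rule (members, targeted genes, called list genes up to 4 per direction, and the 5 genes most like *Prph*) were chosen with earlier results of these data known. The alternatives were another pseudocount, other filters, scalings and variance models, a replicate block, adjusted p values, no fold threshold, summed entries, limma-voom on recovered reads, and each library left out. Replicate numbers were not shown to pair libraries. A listed marker of peripheral neurons is not reported here.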

Additional observations from a re-analysis of the deposited data

Results flagged for a closer look

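The changes of *Nefm*, *Ina* and *Vim* differed between cKO hippocampi and cKO neurospheres, each past an adjusted p of 0.05 in the interaction fit with limma. Over all genes 26.9% of 11075 differed at that threshold. The hippocampal log2 change minus that of neurospheres was −1.39 for *Nefm*, −1.01 for *Ina*, −1.003 for *Nefl* and −0.68 for *Vim*. The hippocampal changes themselves were 0.18, 0.06, 0.02 and 0.50, and those of neurospheres 1.57, 1.08, 1.03 and 1.18. *Nefl* passed that threshold too, but it passed the filter on low values in neurospheres only through its cKO libraries. Its own change thus decided whether it was tested. The call for *Vim* was lost with some libraries left out. Tissue and cultured cells also differ in table, normalisation and cell makeup, and the part of each was not tested.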

How the results depend on the processing

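Of the 6 tested members, 2 were called in hippocampi under each alternative tried, and in neurospheres 4 to 6 of the members. In cortices 0 were called with adjusted p values, against 3, and under the other alternatives 2 or 3. In *Rnf2* hippocampi 0 became 2 with a replicate block (*Nefl* and *Ina*, limma adjusted p = 0.354 for each), 1 with limma-voom on recovered reads (*Ina*, adjusted p = 0.626), and 0 to 2 with a library left out. Same-numbered control and cKO libraries there had r = 0.16 over 2 pairs, which does not show pairing, and elsewhere r was from −0.28 to 0.05. The block changed no other count, and the crossed pairing in neurospheres, added after the data were seen, left 5 calls. With a library left out, differences against neurospheres were called for 2 to 5 members, against cortices for 0 to 1 (*Nefm*, without hippocampal control 2) and against *Rnf2* hippocampi for 0 to 1 (*Ina*, without *Rnf2* control 2). Directions turned for small uncalled values: with a library left out, hippocampal *Nefl* ranged from −0.15 to 0.22 and *Ina* from −4.42e-05 to 0.14, cortical *Vim* from −0.042 to 0.27, *Vim* and *Nes* in *Rnf2* hippocampi from −0.27 to 0.28 and from −0.17 to 0.45, the *Nes* difference against cortices from −0.22 to 0.019, and the *Nefm* difference against *Rnf2* hippocampi from −0.21 to 0.10. Median-ratio scaling put *Vim* in *Rnf2* hippocampi at −0.0032. The hippocampal and cortical *Prph* differences rose to 2.62 and 3.50 at a pseudocount of 0.1, and to 3.88 in cortices with limma-voom. Over all genes, adjusted p values left 67 calls in cortices and 0 in *Rnf2* hippocampi (1121 at an unadjusted p under 0.05 with no fold threshold), and the same FPKM total moved the neurosphere median by 0.11 and the share of higher calls from 46.2% to 60.2%. The causes were not tested. A left-out library leaves a group of 1, whose spread is assumed to be that of the others.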
